A study of Mus musculus with 20 samples.

Results

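The neurofilament and peripherin group described here held 7 genes: the neurofilament light, medium and heavy chains (Nefl, Nefm, Nefh), alpha-internexin (Ina), peripherin (Prph), vimentin (Vim) and nestin (Nes). They were taken by symbol from the 78258 gene identifiers of the count table, and all 7 were among the 28564 genes tested. One day after the nerve lesion, Vim was the member that rose: its level was 1.44-fold higher on the injured side in control mice and 1.27-fold higher in conditional Ahr knockout mice (cKO). The transcripts of the 5 neuronal subunits, Nefl, Nefm, Nefh, Ina and Prph, did not pass the test for a change in either genotype, nor did Nes. With mouse as a fixed block the small decreases of Ina in control and Nefh in cKO mice did pass, and with mouse as a random effect (limma-voom) neither did, while that of Nefl in cKO mice did.

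Intermediate filaments are rope-like polymers that give a cell its mechanical strength. In axons the light, medium and heavy neurofilament chains assemble together, with alpha-internexin and, in peripheral neurons, peripherin as further subunits, and the amount of filament sets the calibre of large myelinated axons. Heavily phosphorylated neurofilament marks large sensory neurons, while peripherin is prominent in the small ones; over days to weeks after a peripheral nerve is cut, sensory neurons are known to lower their neurofilament transcripts. Vimentin is the filament of glia, fibroblasts, endothelium and immune cells, and can be made in injured axons, and nestin is a filament of progenitors that is also found in Schwann cells.

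RNA was measured in dorsal root ganglia, which hold the cell bodies of sensory neurons, taken at lumbar levels 4 to 6 from 10 male mice. The 5 cKO mice carried Ahr fl/fl, floxed alleles of the aryl hydrocarbon receptor gene, and Thy1CRE-ERT2/EYFP, an inducible Cre recombinase driven by the Thy1 promoter, which is active in neurons and not in every neuron type. The 5 control mice were Ahr f/f or f/+, and no Cre transgene is named for them; their sample titles call them wildtype. Both genotypes received tamoxifen (100 mg/kg, once a day for 5 days) at 17 weeks of age; the sciatic nerve was cut 4 weeks later and the ganglia were taken 1 day after the lesion. Each mouse gave 1 library from the contralateral ganglia and 1 from the ipsilateral, injured side, so each of the 4 groups held 5 libraries. A treatment field in the labels names a spinal cord injury instead, and the protocol text was followed. The title of 1 library gives the mouse as H6 and its library name as H61, which was used. There were no unoperated mice, so the contralateral side is the reference throughout.

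Libraries held 76.2 to 118.5 M counts, and the lowest count of any member in any library was 3243 (Nes), for which counting error is 1.76%. Ahr itself, the targeted gene, was at 24.2 ± 2.10 CPM (counts scaled to library size, TMM-normalised; ± SD, n = 5) in control contralateral ganglia and 20.4 ± 0.536 in cKO contralateral ganglia, and the ranges did not overlap, as for 1.52% of tested genes. The difference of -0.25 on the log2 scale did not pass the test (edgeR quasi-likelihood, adjusted p = 0.103), and ipsilaterally the levels were 34.4 ± 2.86 and 31.9 ± 2.94 CPM. Atf3, a transcription factor induced by axon injury, rose on the injured side (11.4 to 426.5 CPM, control; 9.24 to 416.9 CPM, cKO), which checks the side labels. Sensory neuron markers were abundant in every library (summed level of 10 genes 4713.3 to 5517.4 CPM). The contralateral libraries of cKO mice H64 and H95 had the highest fibroblast marker sums of all 20 (2244.7 and 1984.9 CPM), and that of cKO mouse H100 a skeletal muscle sum of 1722.2 CPM, against 2.00 to 636.8 in the others. In bulk tissue, fewer cells of a type and less RNA per cell cannot be told apart.

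The promoters of Vim and Prph are shown because Vim rose after the lesion and Prph, of the same filament class, did not pass the test. Each run is the 250 bases before the RefSeq start site (build GRCm38.p6, plus strand, 5′ to 3′), with TATAAA and CCGCCC in capitals; CCGCCC is GGGCGG, the Sp1 box, read on the opposite strand. Vim lies at chr2:13574061-13574310 and Prph at chr15:99054924-99055173.
Vim: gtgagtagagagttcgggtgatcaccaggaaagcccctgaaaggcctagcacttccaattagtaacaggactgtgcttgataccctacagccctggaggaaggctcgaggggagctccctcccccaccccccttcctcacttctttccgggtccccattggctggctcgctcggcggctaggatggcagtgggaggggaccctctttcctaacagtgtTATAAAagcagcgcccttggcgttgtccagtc
Prph: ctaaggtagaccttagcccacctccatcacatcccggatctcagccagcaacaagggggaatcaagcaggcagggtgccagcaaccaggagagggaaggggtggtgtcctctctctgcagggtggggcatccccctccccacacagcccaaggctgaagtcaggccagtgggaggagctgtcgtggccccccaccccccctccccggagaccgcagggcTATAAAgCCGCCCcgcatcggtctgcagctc
Both held TATAAA on the gene's strand, starting 32 bases before the start site in Vim and 31 before it in Prph, a match found in 8.32% of 32851 RefSeq promoters of 300 bases (250 before and 50 after the start). Prph also held a GGGCGG match, starting at -24, and Vim held none; 35.7% of promoters had one on either strand. The windows of Ina and Nes had 2 GGGCGG matches each and no TATAAA. None of the 4 windows held TGACTCA (the AP-1 site, 5.20% of promoters), TGACGTCA (the cyclic AMP response element, 1.79%) or GCGTG (the core bound by the aryl hydrocarbon receptor, 32.4%), each searched on both strands. A match is a run of letters and no evidence of binding, and its absence says only that these letters are not in this window. Promoters of Nefl, Nefm and Nefh were not used here.

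Levels between genes were compared per kilobase of merged exons (CPM per kb; GENCODE M21 gene models). In control contralateral ganglia Nefl was highest, at 634.2 ± 43.9 CPM per kb (SD, n = 5), followed by Prph at 600.6 ± 30.0, Nefh at 495.1 ± 42.3 and Nefm at 447.1 ± 34.1. Vim was at 65.8 ± 2.91, Ina at 19.1 ± 0.530 and Nes at 8.12 ± 0.632 CPM per kb. This order was the same in all 4 groups. The ranges of Nefl and Prph overlapped in each group, as did those of Nefh and Nefm, although within each library Nefl was above Prph and Nefh above Nefm in 20 of 20. The other neighbours did not overlap in any group. The 3 neurofilament chains together made up 0.671% of the control contralateral counts.

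The place of Nefm depends on the length it is divided by. The gene has 2 transcripts in the annotation, and the longer, Nefm-202, runs into the exon of Nefl on the opposite strand, with 1108 shared bases, while Nefm-201 (3334 bases) shares none. Divided by the length of Nefm-201, control contralateral Nefm was at 775.4 ± 59.1 CPM per kb, above Nefl. The authors' deposited FPKM gave the opposite picture, at 61.1 ± 3.51 for Nefm and 409.0 ± 20.9 for Nefl, since the length behind that FPKM was the whole gene span, 42257 bases for Nefm against 5233 for Nefl. Before any division by length, the CPM of Nefm was 1.21 times that of Nefl. The setting of strand in the counting is not given in the sources used here, so reads in the 1108 shared bases may be split between Nefl and Nefm in a way that cannot be told apart; Ina likewise shares 456 exonic bases with Nt5c2 on the opposite strand, and Nt5c2 was not called in either injury comparison.

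**Figure D1:**
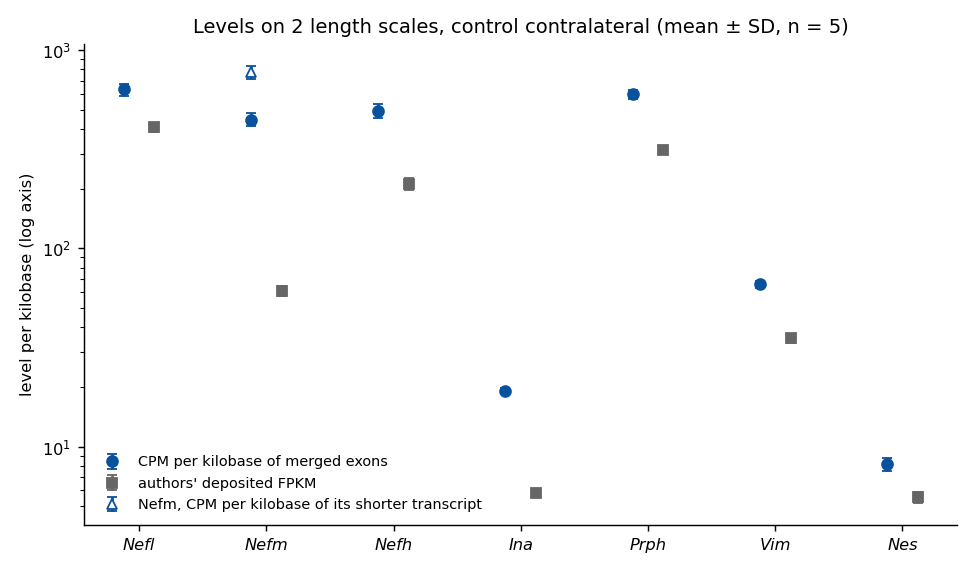
Level of each member in control contralateral ganglia (mean ± SD, n = 5 libraries) on a log axis, as CPM per kilobase of merged exons (circles), as the authors' deposited FPKM (squares), and for Nefm also per kilobase of its shorter transcript (triangle). Nefm is at 447.1 or 775.4 CPM per kb by the length used, and at 61.1 in deposited FPKM.

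The light chain, Nefl, on which the other chains assemble, was at 1969.5, 2288.3, 2177.2, 2008.2 and 2275.2 CPM in the contralateral ganglia of control mice H62, H63, H65, H96 and H97, and at 2149.3, 2286.0, 2173.3, 2154.0 and 1980.2 CPM on the injured side of the same mice. The sides overlapped throughout, and the injured side was lower in 3 mice and higher in 2. The fitted change was 0.00 on the log2 scale (SE 0.0510, adjusted p = 0.973), with a 95% interval from -6.89% to 7.89%. In cKO mice H61, H64, H95, H99 and H100, Nefl was at 2180.5, 2188.0, 2012.7, 2330.4 and 2158.5 CPM contralaterally and at 2053.3, 1849.5, 1938.8, 2008.1 and 2093.6 CPM ipsilaterally. The injured side was lower in 5 of 5 cKO mice, by 0.04 to 0.24 on the log2 scale, although the groups overlapped. The fitted change of -0.13 (SE 0.0510, or -8.53% with an interval from -15.0% to -1.53%) did not pass the test over all genes, with an adjusted p of 0.0610. It passed with DESeq2 (-0.12, adjusted p = 0.0438) and with mouse as a random effect (-0.13, adjusted p = 0.0327), and on log2 FPKM + 1 all 3 chains did (Nefl -0.15, Nefm -0.12 and Nefh -0.18).

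Nefh, the heavy chain that carries most of the phosphorylation sites, showed the same pattern. In control mice H62, H63, H65, H96 and H97 it was at 1791.2, 2121.7, 2039.9, 1801.5 and 2132.5 CPM contralaterally and at 1922.4, 2065.8, 1818.9, 1947.3 and 1814.6 CPM ipsilaterally, with overlapping groups. In cKO mice H61, H64, H95, H99 and H100 it was at 1963.5, 1963.0, 1708.2, 2258.0 and 1843.5 CPM contralaterally and at 1793.4, 1672.5, 1652.3, 1818.9 and 1768.8 CPM ipsilaterally, lower on the injured side in 5 of 5 mice while the groups overlapped. The injury change of Nefh was -0.05 (SE 0.0654, adjusted p = 0.654) in control and -0.16 (SE 0.0654, adjusted p = 0.0666) in cKO mice. With mouse as a replicate block the cKO value was -0.16 with an adjusted p of 0.0479 and so passed; with mouse as a random effect it did not (adjusted p = 0.0509).

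Nefm, the medium chain, ran from 2360.3 to 2778.3 CPM contralaterally and 2392.3 to 2742.7 ipsilaterally in control mice, and from 2333.3 to 2865.8 and 2277.5 to 2523.2 in cKO mice. Neither change passed the test (-0.01, adjusted p = 0.941; -0.10, adjusted p = 0.171). Summed over the 3 chains, the level was 6706.2 ± 514 and 6633.4 ± 327 CPM in control mice, contralateral and ipsilateral, and 6698.4 ± 507 and 6127.5 ± 258 in cKO mice. The summed level of 9 markers of large-diameter neurons was also lower on the injured side, at 1878.5 and 1710.8 CPM in control and 1844.5 and 1659.1 in cKO mice, contralateral and ipsilateral. Of those 9 genes, 3 fell in each genotype (Runx3, Cntnap2 and Kcna2 in control; Pvalb, Runx3 and Kcna2 in cKO) and 1, Spp1, rose in control mice, beside 16% and 15.1% of all tested genes called lower. The sides of this sum overlapped in both genotypes, and the part of that list in the neurofilament values was not tested. The sum of 11 small-diameter neuron markers was 4112.3 and 3787.8 CPM in control mice, lower in 5 of 5, and 3783.5 and 3813.5 CPM in cKO mice, lower in 2 of 5. The general sensory neuron sum was 5233.5 and 5159.2 CPM in control and 5023.5 and 5024.1 CPM in cKO mice. Of 11 small-diameter genes, Scn10a, Mrgprd, Gfra2 and Th fell in control mice, and in cKO mice Calca and Gfra2 fell while P2rx3 and Plxnc1 rose. Of 10 sensory neuron genes, Rbfox3, Isl1, Pou4f1, Scn9a and Syt1 fell in control mice and Rbfox3, Snap25 and Isl1 in cKO mice. Elavl3 and Slc17a6 rose in both. The genes of these lists that rose stand beside 13.8% of all tested genes called higher in control and 16.2% in cKO mice.

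Alpha-internexin was the least abundant neuronal member. Control mice H62, H63, H65, H96 and H97 had 60.4, 61.1, 60.3, 62.8 and 64.3 CPM of Ina contralaterally and 60.9, 56.8, 53.5, 57.9 and 54.9 CPM ipsilaterally. The injured side was lower in 4 of 5 control mice, and H62, with 60.9 CPM, was the one ipsilateral library inside the contralateral range. The change of -0.12 (SE 0.0549, -8.07%) had an adjusted p of 0.107 and did not pass; with mouse as a replicate block it was -0.12 with an adjusted p of 0.0357 and passed, and with mouse as a random effect it did not (adjusted p = 0.0695). In cKO mice H61, H64, H95, H99 and H100 it was at 57.0, 51.2, 54.2, 68.1 and 58.4 CPM contralaterally and 57.8, 54.8, 57.5, 61 and 58.4 CPM ipsilaterally, and the fitted change was 0.00 (adjusted p = 0.977). Mouse H99 was the highest of both cKO groups.

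Peripherin had a coefficient of variation of 1.83% to 5.00% within groups. It ran from 1126.0 to 1270.5 CPM contralaterally and 1132.2 to 1271.2 ipsilaterally in control mice, and from 1164.5 to 1216.8 and 1090.5 to 1203.1 in cKO mice. The change was 0.02 (SE 0.0381, adjusted p = 0.790) in control and -0.03 (SE 0.0381, adjusted p = 0.549) in cKO mice. Its 95% intervals, -4.20% to 6.94% and -7.56% to 3.18%, bound the change that these libraries leave room for.

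**Figure D2:**
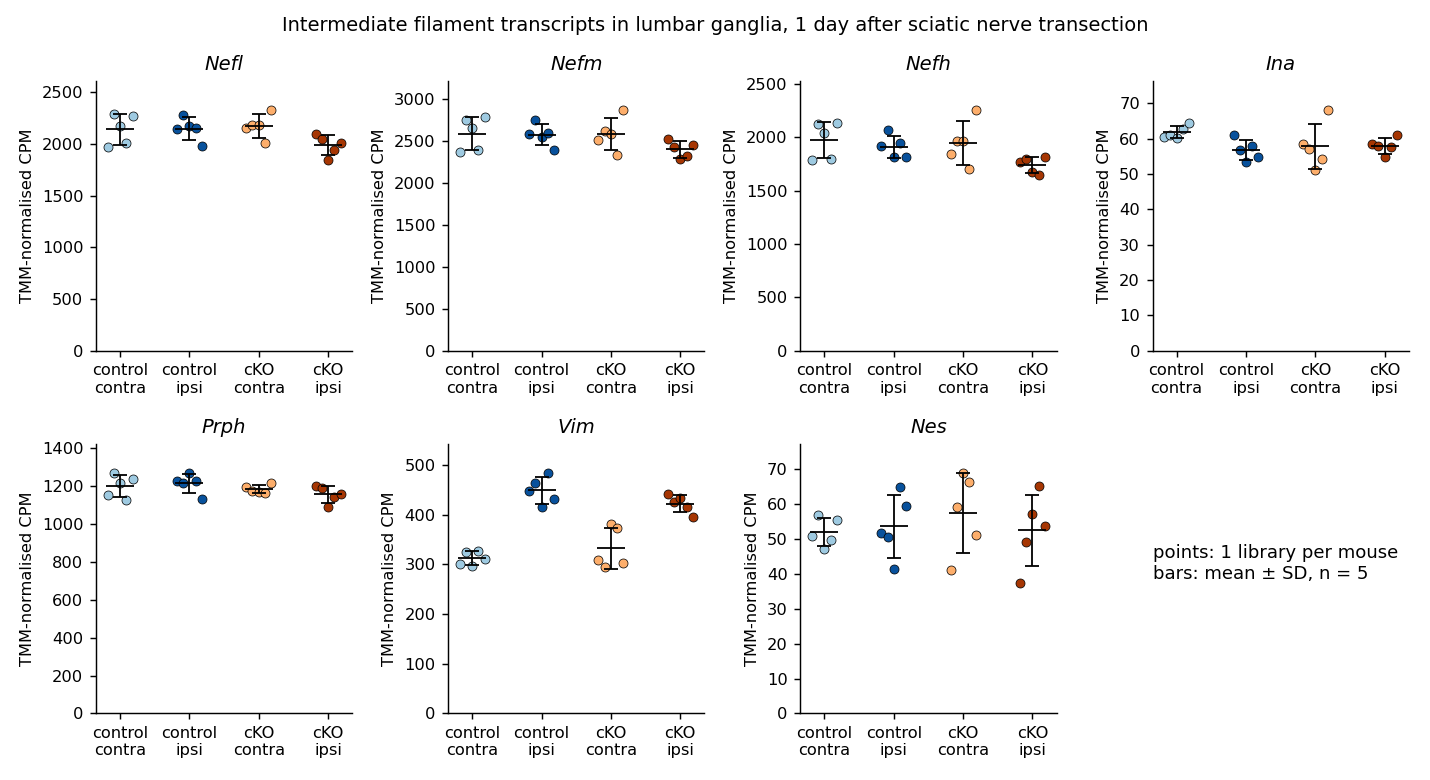
TMM-normalised CPM of each member in every library, 1 panel per gene, with the mean and SD of each group of 5 mice; each axis starts at 0. The 2 injured groups of Vim (395.1 to 484.5 CPM) lie above all contralateral libraries, and the groups of the other 6 genes overlap.

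Vimentin rose. Control mice H62, H63, H65, H96 and H97 had 301.0, 325.2, 297.1, 327.6 and 310.0 CPM of Vim contralaterally and 448.3, 463.4, 415.0, 484.5 and 432.2 CPM ipsilaterally. In cKO mice H61, H64, H95, H99 and H100 it was at 295.2, 381.5, 373.1, 302.6 and 307.9 CPM contralaterally and at 426.1, 432.9, 416.3, 395.1 and 441.3 CPM ipsilaterally. Every injured library was above every contralateral library, and H64 and H95 were the highest contralateral ones. The injury change was 0.52 on the log2 scale in control mice (SE 0.0641, 95% interval 0.39 to 0.66, adjusted p = 2.070e-06) and 0.35 in cKO mice (SE 0.0640, interval 0.21 to 0.48, adjusted p = 0.000251), in 5 of 5 mice of each genotype. Vim was thus 1 of 7 members called in each comparison, against a background of 13.8% of tested genes called higher in control and 16.2% in cKO mice (29.9% and 31.3% in either direction). Groups did not overlap for 23.6% and 20.2% of the tested genes, and the change of Vim stood at percentile 92.3 and 88.6 of all tested changes.

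Levels of markers of cell types that make vimentin follow. In control mice, contralateral and ipsilateral, the summed level of endothelial markers was 116.1 and 146.9 CPM, of macrophage markers 104.1 and 137.7, of satellite glia markers 1699.7 and 1950.1, and of fibroblast markers 975.3 and 1203.5. Of these lists 3 of 7, 1 of 8, 2 of 7 and 0 of 7 genes rose, beside 13.8% of all tested genes, and no gene of the 4 lists was at 0 in any library. In cKO mice the endothelial sum was 134.7 and 135.0 CPM, the macrophage sum 127.0 and 132.6, the satellite glia sum 1780.8 and 1804.9, and the fibroblast sum 1573.0 and 1137.2, contralateral and ipsilateral, with 0 of 7, 0 of 8, 2 of 7 and 0 of 7 genes called higher, beside 16.2% of all tested genes. The fibroblast list had 1 gene called lower in cKO mice, the matrix gene Dpt. The satellite glia genes that rose in both genotypes were Kcnj10, a potassium channel, and Glul, glutamine synthetase. In control mice the satellite glia sum did not overlap between the sides (1611.9 to 1785.1 CPM against 1809.2 to 2042.0), as for 23.6% of single tested genes. In cKO mice the sides of the satellite glia sum overlapped. The endothelial sum of control mice was higher on the injured side in 5 of 5 mice with overlapping ranges. The mural cell sum was 277.7 and 307.7 CPM in control mice, higher in 4 of 5, with 0 of 6 genes called. In cKO mice it was 265.4 and 303.4 CPM, higher in 5 of 5 without overlap (at most 276.6 contralaterally against 288.7 to 334.1). For 20.2% of single tested genes the cKO sides did not overlap either. Of 6 mural cell genes 1, Rgs5, rose. No mural cell gene was at 0 in any library. The Schwann cell sum was 4126.9 and 4133.0 CPM in control mice, higher in 2 of 5. It was 4200.4 and 3925.7 CPM in cKO mice, higher in 1 of 5. The neutrophil sum was 54.3 and 78.4 CPM in control and 90.9 and 83.2 CPM in cKO mice. Of these lists 0 of 8 and 0 of 6 genes were called higher in either genotype. The part of all these lists in the Vim change was not tested.

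In the contralateral libraries of cKO mice H64 and H95, where Vim was highest, the sums for endothelium (165.2 and 155.5 CPM), satellite glia (1877.7 and 1944.9), macrophages (189.5 and 138.8) and Schwann cells (4563.7 and 4604.0) were the highest of the group and the sensory neuron sums the lowest (4725.6 and 4713.3). With both mice left out, an alternative chosen after seeing the data, the cKO change of Vim was 0.49 (adjusted p = 6.156e-06). The control change was 0.53, and Vim was still the 1 member called in each comparison. Leaving out the highest contralateral values raises the cKO change by that choice.

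**Figure D3:**
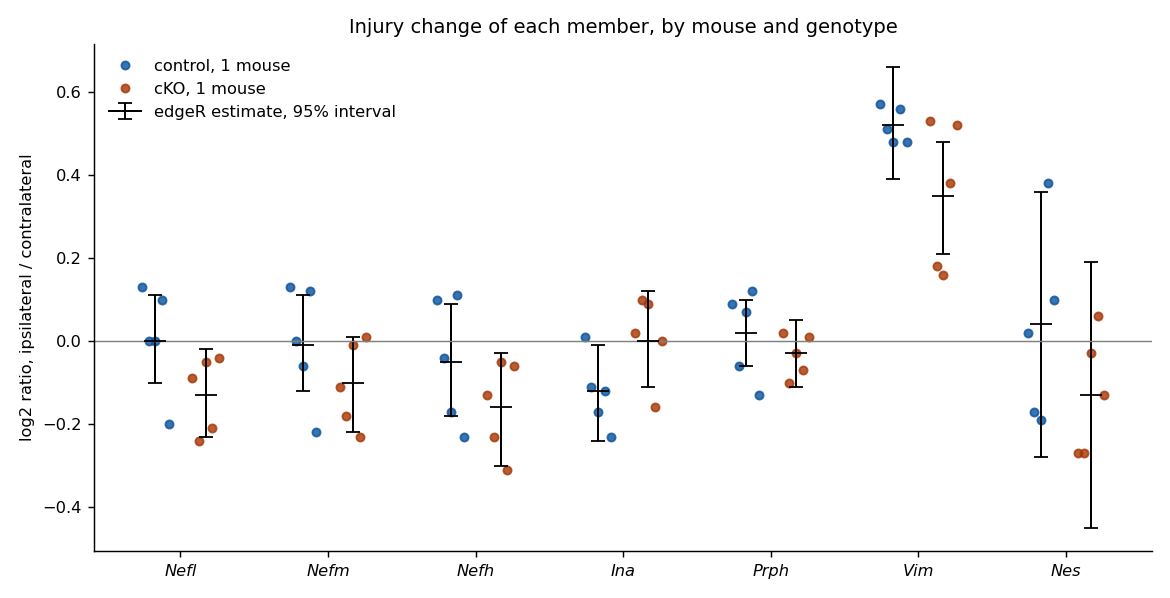
Log2 ratio of the injured to the contralateral side for each member, 1 point per mouse (5 control in blue, 5 cKO in brown), with the edgeR estimate and its 95% interval. All 10 mice are above 0 for Vim (0.16 to 0.57), and the 5 cKO mice are below 0 for Nefl and Nefh.

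Nestin ran from 47.2 to 57.0 CPM contralaterally and 41.5 to 64.9 ipsilaterally in control mice, and from 41.1 to 69.1 and 37.5 to 65.2 in cKO mice. The change was 0.04 (SE 0.152, adjusted p = 0.877) in control and -0.13 (SE 0.152, adjusted p = 0.575) in cKO mice, with 95% intervals from -17.5% to 28.6% and from -26.7% to 14.2%. A rise of 43.7%, as of Vim in control mice, lies outside both intervals; one of 27.2%, as of Vim in cKO mice, lies inside the control interval.

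No member passed the test between the genotypes on either side. On the contralateral side the log2 differences, cKO minus control, were 0.02 for Nefl, 0.00 for Nefm, -0.02 for Nefh, -0.10 for Ina, -0.02 for Prph, 0.09 for Vim and 0.14 for Nes, with adjusted p from 0.375 (Ina) to 0.980 (Nefm). Here 21 genes of the whole table were called, or 0.0735%. On the ipsilateral side they were -0.11 for Nefl, -0.10 for Nefm, -0.14 for Nefh, 0.03 for Ina, -0.07 for Prph, -0.09 for Vim and -0.03 for Nes. The unadjusted p was 0.0405 for Nefl and 0.0498 for Nefh, the adjusted p was 1 for all 7; 0.0070% of the tested genes were called and 2.36% had an unadjusted p under 0.05. The contralateral count rested on mouse H99: without it Ina was called lower in cKO mice (-0.16, adjusted p = 0.0173), and 3326 genes of the table were called in either direction. Without H64 and H95, an alternative chosen after seeing the data, the contralateral differences were -0.01 for Ina, -0.05 for Vim and -0.04 for Nes. None of these was called.

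The difference of the injury changes, cKO minus control, was tested in itself. It was -0.18 for Vim (SE 0.0904, unadjusted p = 0.0651, adjusted p = 0.527), -0.13 for Nefl (SE 0.0721, adjusted p = 0.550), -0.10 for Nefm, -0.11 for Nefh, 0.12 for Ina (adjusted p = 0.591), -0.05 for Prph and -0.17 for Nes. No member passed, and edgeR called 0 genes of the table (0%), with 2799 (9.8%) at an unadjusted p under 0.05. DESeq2 called 11 genes, and edgeR without mouse H99 called 43, in each case with no member among them. With mouse as a replicate block the values were -0.17 for Vim, -0.13 for Nefl and 0.13 for Ina (adjusted p = 0.420, 0.486 and 0.422), with 0 genes of the table called. With H64 and H95 left out the value for Vim was -0.05. These mice were picked after seeing the data and had the highest cKO contralateral Vim. Leaving them out shrinks the difference by that choice, so the value is no test of it. The lower Nefl and Nefh in cKO mice is therefore not shown to differ from the control response.

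Ratios within a library do not depend on how libraries are scaled, and 4 of them were compared on the log2 CPM scale (prior count 2). Nefm to Nefl was nearly constant, with group means of 1.18 to 1.21 in CPM and an SD of 0.0128 to 0.0297. Over the 10 mice the injured side had a lower Nefh/Nefl ratio in 7 (mean change -0.04, two-sided exact sign-flip permutation p = 0.0254) and a higher Prph/Nefl ratio in 8 (0.05, exact p = 0.0410). Adjusted over the 4 ratios, both had a p of 0.0820 and did not pass. Nefm/Nefl (0.01, exact p = 0.527) and Ina/Nefl (0.01, exact p = 0.926) did not pass either.

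Of 12 genotype tests of these ratios, none passed after adjustment. The injury change of Ina/Nefl was -0.13 ± 0.0719 for the 5 control and 0.14 ± 0.120 for the 5 cKO mice, a difference of 0.26 with an exact permutation p of 0.00794, the smallest that 5 against 5 can give. Adjusted over the 12 tests it was 0.0952, which is that smallest p times 12. The remaining 11 tests had an exact p of 0.0317 or more.

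Across libraries, after each group's mean was removed, the neurofilament chains moved together. The correlation over 20 libraries from 10 mice was 0.96 for Nefl with Nefm (Spearman 0.94), 0.96 for Nefm with Nefh and 0.88 for Nefl with Nefh. Prph followed Nefl (0.86) more than Nefh (0.61), Ina was at 0.43 with Nefl, and Vim at -0.12. These are descriptions: points share mice and library composition, and Nefl and Nefm also share the overlapping bases. Nefh went with the large-diameter neuron list (0.88; 0.79 without the 2 libraries farthest out), as did Nefm (0.79) and, at a lower value, Prph (0.37); with the general sensory neuron list the values were 0.80 for Nefh, 0.88 for Nefm and 0.75 for Prph. With the small-diameter neuron list they were 0.52 for Nefh, 0.62 for Nefm, 0.57 for Nefl, 0.72 for Ina and 0.59 for Prph. Differences between these values were not tested. Nes went with the Schwann cell list (0.83; 0.76 without 2), a list that holds myelin genes. For Vim the values were 0.70 with endothelium, 0.71 with satellite glia, 0.68 with fibroblasts and 0.70 with macrophages (0.54 to 0.62 without 2). They were 0.48 with Schwann cells, 0.41 with neutrophils, 0.06 with mural cells, -0.50 with sensory neurons and with large-diameter neurons, and -0.66 with small-diameter neurons.

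**Figure D4:**
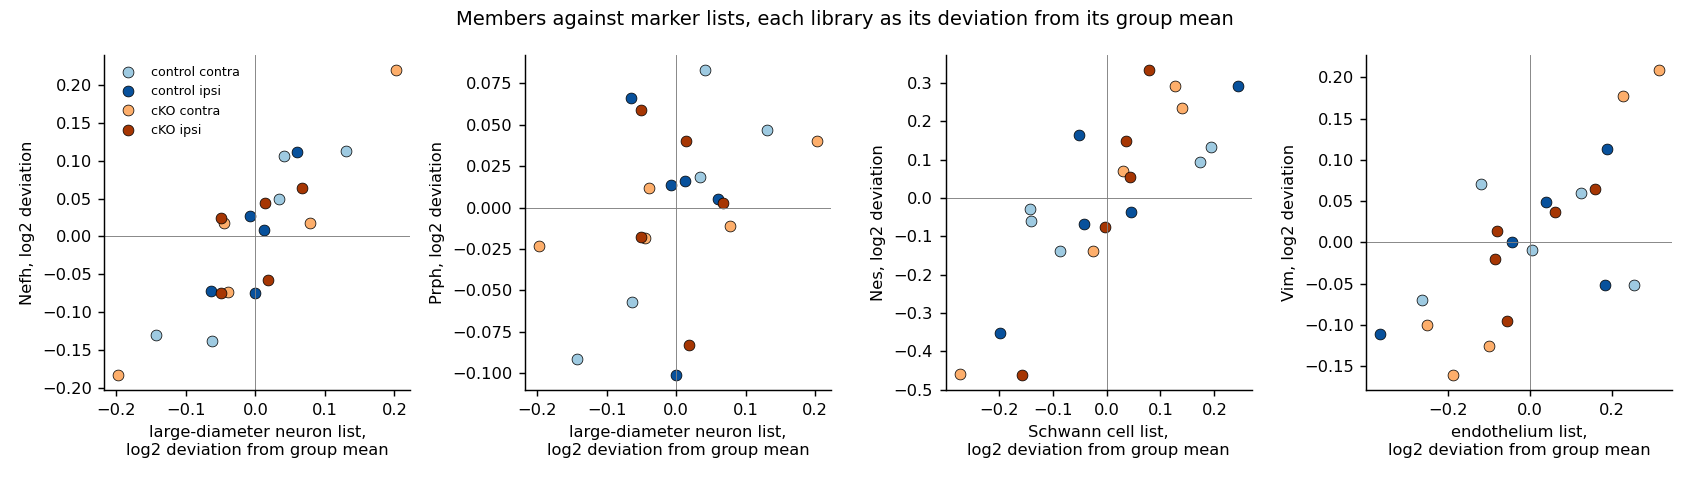
Each library as its log2 deviation from its group mean, for Nefh and Prph against the large-diameter neuron list, Nes against the Schwann cell list and Vim against the endothelium list (20 libraries, coloured by group). The points of Nefh and Nes lie along a line (0.88 and 0.83), those of Prph are more scattered (0.37).

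Among 8230 genes averaging 20 CPM or more, the 5 most like Nefl, Nefh, Prph, Nes and Vim in these deviations were named by rank, with the members themselves left out of the ranking. For Nefl they were Snurf (0.96), Ywhah (0.95), Snap25 (0.94), Tuba1a and Tubb3 (0.93 each), that is, an imprinted transcript, a 14-3-3 protein, a synaptic vesicle fusion protein and 2 tubulins. Those of Nefh were Endod1 (0.94), Pygb, Vamp1, Snap25 and Ckmt1 (0.92 each), and those of Prph were Stmn2, Snrpn, Ywhae, Sult4a1 (0.95 each) and Tubb3 (0.93). For Nes they were Mme (0.95), Kif19a (0.94), Arhgap19 and Drp2 (0.93 each) and Prx (0.92), the last 2 being proteins of the Schwann cell myelin sheath and Prx a member of the Schwann cell list. For Vim they were Lhfp (0.91), Plscr4 (0.88), Sdc4, Itih5 and Matn2 (0.87 each).

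The other intermediate filament genes gave 4 of 13 tested members higher and 2 lower in control mice, and 4 higher and 1 lower in cKO mice, beside the background of 13.8% and 16%, and 16.2% and 15.1%. Their median change was 0.13 and -0.03, against 0.00 and -0.03 over all tested genes. Gfap, the glial filament protein of reactive satellite cells, rose most, by 2.38 (SE 0.415, adjusted p = 0.000241) in control and 2.22 (SE 0.427, adjusted p = 0.000604) in cKO mice, from a low level. It ran from 0.736 to 2.94 CPM contralaterally and 3.24 to 13.7 ipsilaterally in control mice, and from 0.446 to 1.07 and 3.06 to 5.43 in cKO mice; H96 was the highest control mouse on both sides. On log2 FPKM + 1, where the pseudocount shrinks low genes, the changes were 0.43 and 0.28 for Gfap, -0.04 and -0.04 for Bfsp1 and 0.06 and 0.05 for Lmnb1, all still called. Lmnb1, a nuclear lamin, rose by 0.47 and 0.42 (adjusted p = 0.00290 and 0.00710), the cKO call being lost without H64 and H95 (adjusted p = 0.0621). Bfsp1, a beaded filament protein best known from the lens, fell by 0.52 and 0.58 (adjusted p = 0.000133 and 3.939e-05). Iffo1, a nuclear filament protein, fell by 0.17 in control mice (adjusted p = 0.000415) and had a change of -0.08 in cKO mice (adjusted p = 0.0637; 0.0392 with the replicate block). Iffo2, related to Iffo1, rose by 0.20 and 0.23 (adjusted p = 0.0164 and 0.00612) and was named, like the lamin Lmna, after its values were seen.

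The genes that modify, carry or degrade neurofilaments were set beside the members from lists that were written with earlier results known. Their counts stand beside the same shares of all tested genes, 13.8% higher and 16% lower in control and 16.2% and 15.1% in cKO mice. Of 8 genes for turnover and assembly, 2 rose and 2 fell in control mice, and 3 rose and 1 fell in cKO mice. Hspb1, a small heat shock protein whose mutants disturb neurofilament assembly, rose by 0.87 and 0.82 (adjusted p = 1.785e-13 and 3.134e-13), from 155.2 to 283.7 and from 153.8 to 271.3 CPM. Trim2, a ubiquitin ligase for the light chain, fell by 0.14 in control mice (adjusted p = 0.0293) and was at -0.09 in cKO mice (adjusted p = 0.140). Mtmr2, a lipid phosphatase that binds the light chain, fell by 0.08 in each genotype (adjusted p = 0.0295 and 0.0380), and neither held with the replicate block (adjusted p = 0.0565 and 0.0691). The call of Mtmr2 was lost without H63, H65, H95 or H97 in control (0.0893 to 0.320) and without H61, H63, H64, H65, H95 or H99 in cKO mice (0.0517 to 0.147). That of Trim2 in control mice was lost without H63, H65, H96 or H97 (0.0635 to 0.180). The protease Capn2 rose by 0.12 and 0.16 (adjusted p = 0.0169 and 0.00158), a call lost in control mice without H62 (adjusted p = 0.0958) and in cKO mice without H64 and H95 (0.0629). In cKO mice the chaperone Dnajb2 also rose (0.08, adjusted p = 0.0107; named after its values were seen).

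Of 15 kinases, phosphatases and their partners, 4 rose and 2 fell in control mice, and 5 rose and 2 fell in cKO mice. The activators of Cdk5, a kinase of the heavy-chain tail, were lower: Cdk5r1 fell by 0.54 (SE 0.0573, adjusted p = 2.718e-07) and 0.40 (adjusted p = 1.521e-05), and Cdk5r2 by 0.24 (adjusted p = 0.000313) and 0.14 (adjusted p = 0.0217; 0.0502 without H95, 0.0568 without H99, 0.107 without H64 and H95, 0.0551 without a filter and 0.141 with the libraries compared alone). Cdk5 itself was at -0.08 in each genotype and was not called. Gsk3b, another neurofilament kinase, rose by 0.21 and 0.32 (adjusted p = 0.00634 and 0.000189), and Ppp2ca, a catalytic subunit of protein phosphatase 2A, by 0.15 and 0.14 (adjusted p = 8.854e-05 and 0.000209). Named after their values were seen, the phosphatase subunits Ppp1cc (0.10 and 0.11) and Ppp2r2a (0.13 and 0.23) rose in both genotypes. In cKO mice the kinase Mapk8 also rose (0.16, adjusted p = 0.00528); the difference between genotypes did not pass.

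Among 11 linkers and cross-linkers, 2 rose and none fell in each genotype. These were the plakins that tie filaments to other parts of the cell: Dst, by 0.27 and 0.33 (adjusted p = 0.0308 and 0.00854), and Plec, by 0.21 and 0.33 (adjusted p = 0.0327 and 0.00135). Neither was firm. Without control mouse H62, H63 or H96 the control calls were lost (adjusted p for Dst 0.103, 0.0932 and 0.0714; for Plec 0.123, 0.0705 and 0.141), as was that of Plec with the replicate block (adjusted p = 0.0602). In cKO mice Dst was lost without H64 (adjusted p = 0.0715), and both were lost without H64 and H95 (adjusted p = 0.298 and 0.0899).

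Of 9 transport motor genes, 2 fell in control mice, Dync1i1, a subunit of the dynein motor that runs toward the cell body (-0.16, adjusted p = 0.00866), and Dctn1, a subunit of its cofactor dynactin (-0.17, adjusted p = 0.0117). In cKO mice they were at -0.09 and -0.06 (adjusted p = 0.142 and 0.421), and Dync1h1, the dynein heavy chain, rose (0.32, adjusted p = 0.0292; named after its values were seen). Without H97 both control calls were lost (adjusted p = 0.0684 and 0.0980), as was Dync1i1 without H96 (0.0505) and Dctn1 without H63 (0.0550). The kinesin heavy chains Kif5a, Kif5b and Kif5c, which carry neurofilaments outward, were not called in either genotype. Of 6 proteins that bind neurofilament transcripts, 1 rose and 1 fell in control mice, and 1 rose in cKO mice. Tardbp was not called. Hnrnpk rose by 0.08 and 0.07 (adjusted p = 0.0391 and 0.05), lost in both with the replicate block (adjusted p = 0.0786 and 0.0925). Its control call was also lost without H62 or H96 (0.199 and 0.113) and its cKO call without H61, H64, H95 or H100 (0.0611 to 0.141). Elavl4 fell by 0.15 in control mice (adjusted p = 0.0188), which was lost without H63, H96 or H97 (adjusted p = 0.0685, 0.102 and 0.149).

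**Figure D5:**
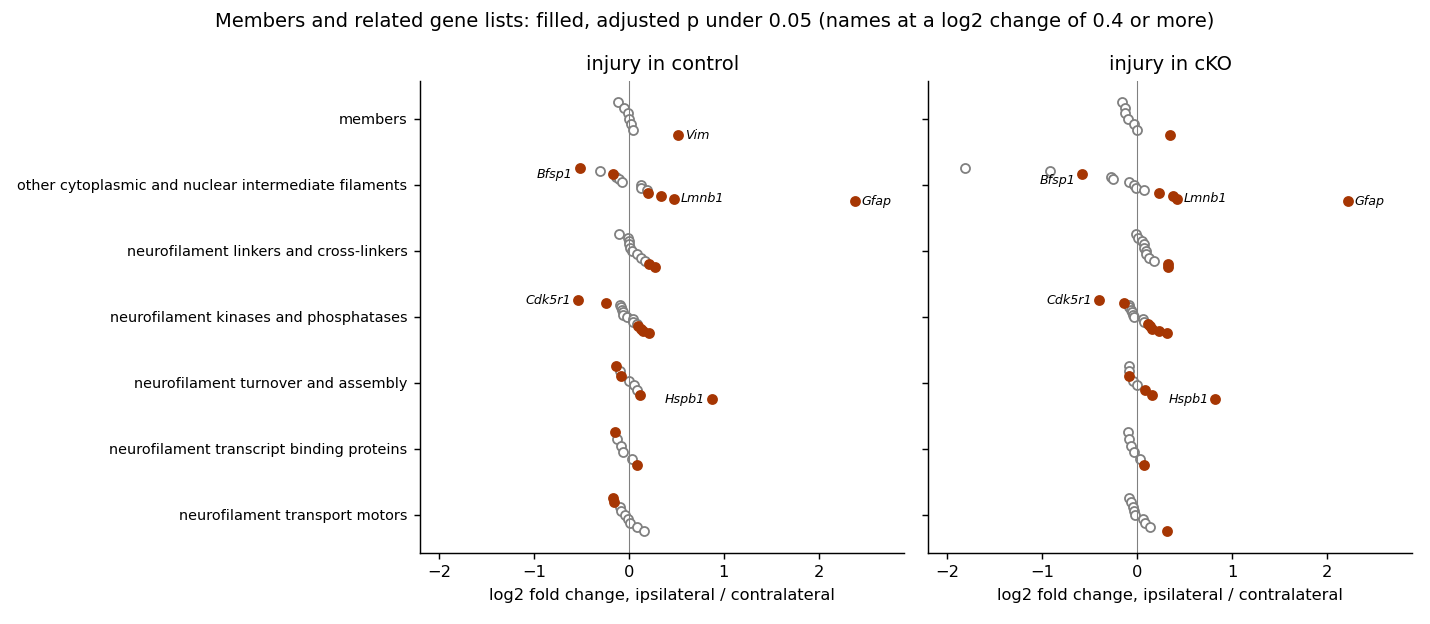
Log2 injury change of each member and each reported gene of 6 related lists, in control (left) and cKO mice (right); filled points passed an adjusted p of 0.05 and open points did not. Gfap (2.38 and 2.22) and Hspb1 lie to the right of all members, and the neuronal members lie between -0.16 and 0.02.

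Of 10 genes of the growth-related cytoskeleton, 7 rose in control and 4 in cKO mice, with none lower, beside 13.8% and 16.2% of all tested genes called higher; Gap43 and Tubb2b rose in both and Tuba1c in control mice. Stmn4, a stathmin that binds tubulin, rose by 1.91 and 1.92 (adjusted p = 9.019e-14 and 7.447e-14), and the beta-tubulin Tubb6 by 1.66 and 1.59 (adjusted p = 2.996e-15 and 5.096e-15). Actb rose by 0.11 and Stmn2 by 0.15 in control mice (adjusted p = 0.0168 and 0.00549), with 0.03 and 0.06 in cKO mice (adjusted p = 0.496 and 0.266); the control call of Actb was lost without H62 or H96 (adjusted p = 0.0581 and 0.0862). All 5 lesion response genes rose in both genotypes, among them Sprr1a (5.32 and 5.35), Atf3 (5.23 and 5.50), Gal (1.73 and 1.55) and Jun (1.51 and 1.70). No gene of the 6 neurofilament-related lists or of the growth list was called between the genotypes; of the lesion response genes, Jun was lower in cKO contralateral ganglia (-0.21, adjusted p = 0.0278).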

How the data were processed

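RNA sequencing libraries (stranded mRNA, paired reads of 150 bases, per the labels) were made from both sides of 10 mice. The deposited counts are whole numbers per gene and were not normalized. The authors' deposited FPKM is scaled to library size and to the whole gene span, as tested on the 7 members, and was used only within genes. The submitters' processing notes name HISAT2, Picard, mm10 and mm39; the counting program, annotation and strand setting are not given in the sources used here. Symbols came from GENCODE M21 (51487 of 78258 identifiers, 98.1% of counts).

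edgeR 4.0.16 (R 4.3.3, TMM, filterByExpr with a minimum count of 10 and total of 15, robust quasi-likelihood test) was fitted to all 20 libraries with 4 group means. Benjamini-Hochberg adjustment ran over 28564 genes, and genes were called at an adjusted p under 0.05. The code was also run on simulated counts, drawn without correlation between libraries of a mouse. That run does not test the unpaired fit on these data. CPM are TMM-normalised, ± SD over mice. Ratios were tested by exact permutation. Alternatives used DESeq2 1.42.0, limma 3.58.1 (voom with mouse as a random effect; log2 FPKM with pseudocounts of 1 and 0.1), RLE factors, other filters, the libraries compared alone, a replicate block and each mouse left out.

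Same-numbered libraries come from 1 mouse; their deviations correlated by -0.16 to 0.668 (median 0.308, over 0.1 in 8 of 10 mice). Libraries of a group differed by more than counting error (chi-square per degree of freedom 5.31 to 58.3 over 40 pairs). The counting error given for the lowest count leaves out this spread between libraries, and reads carried no molecular identifiers. Intervals of the changes come from the edgeR fit and include the spread between libraries of a group. All members were named, and from each list the called genes with the 2 highest and 2 lowest changes in control mice; further genes were picked once values were known. Some genes of the lists are not reported here and are left out of their counts. The members and lists were chosen with earlier results of these data known.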

Additional observations from a re-analysis of the deposited data

Results flagged for a closer look

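In groups of 5 mice, a value was listed where its gap to the nearest other, as a share of the group's range, exceeded 0.71. Of 118 groups examined 9 had such a value, where chance gives about 1 in 20, or 5.9. Control mouse H65 had the lowest ipsilateral log2 Nefm/Nefl (gap share 0.788) and Nefh/Nefl (0.732), in a library that also had the lowest mural cell marker sum of its group (283.3 CPM, gap share 0.742). Control mouse H97 had the lowest ipsilateral Hspb1 (264.4 CPM, 0.923). Control mouse H96 had the highest Gfap on both sides (2.94 CPM contralaterally, 0.878; 13.7 CPM ipsilaterally, 0.713). The contralateral library of control mouse H62 had the highest neutrophil (117.6 CPM, 0.905) and erythroid (710.7 CPM, 0.795) marker sums of its group. That of cKO mouse H100 had the highest skeletal muscle sum (1722.2 CPM, 0.966).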

How the results depend on the processing

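Vim stayed called in both injury comparisons under every alternative, at 0.49 to 0.55 in control (adjusted p up to 4.589e-05) and 0.30 to 0.49 in cKO mice (up to 0.00351), and no member's called change reversed. Members called in control injury rose from 1 to 2 with log2 FPKM at pseudocount 1 or 0.1, with the libraries compared alone and with the replicate block (1 to 2 with each mouse left out); the added gene was Ina each time (-0.14 to -0.10, adjusted p 0.0338 to 0.0364; -0.12 and 0.0264 without H99). In cKO injury the count was 2 with DESeq2, voom and a mean CPM of at least 1, each adding Nefl (adjusted p = 0.0438, 0.0327 and 0.0419), 2 with the replicate block, adding Nefh (-0.16, 0.0479), and 4 with both log2 FPKM settings, adding Nefl, Nefm and Nefh (adjusted p 0.00672 to 0.0343). With a mouse left out it was 1 to 2, adding Nefh without H95 (adjusted p = 0.0414) or Nefl without H97 (0.0444). The contralateral genotype count was 0 to 1 with a mouse left out, adding Ina without H99; the whole table then had 3326 calls, against 21, and 1041 with DESeq2. The block changed no other call of a member. It was fitted to both injury comparisons and to their difference; it could not be fitted to the genotype comparison on 1 side, since each mouse has 1 genotype. The 4 injury tests of ratios did not pass in any of their 12 alternatives; a single genotype test of a ratio could not have passed at this number of mice. Among the other list genes, control calls lost without a filter were Plec, Dst, Trim2, Mtmr2 and Hnrnpk (adjusted p 0.0545 to 0.185). In cKO mice those of Cdk5r2 (0.0551) and Mtmr2 (0.287) were lost. With the libraries compared alone Mtmr2 was lost in control and cKO mice (0.0899 and 0.209), and Cdk5r2 and Hnrnpk in cKO mice (0.141 and 0.0553). RLE factors lost Mtmr2 in control mice (0.0524) and log2 FPKM Hnrnpk in cKO mice (0.0535 and 0.0565). Without H64 and H95 the calls of Mtmr2 (0.0736 and 0.185) were lost. In cKO mice those of Hnrnpk (0.322), Lmnb1 (0.0621), Plec (0.0899), Dst (0.298), Cdk5r2 (0.107) and Capn2 (0.0629) were lost as well. The causes of these shifts were not tested. With 5 mice a group, the spread between mice and not depth sets the precision: the interval of the Nes injury change in control mice spans -17.5% to 28.6%.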

Other observations

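A nuclear lamin gene outside the naming rule, Lmna, was picked after its values were seen: it rose by 0.34 (SE 0.0281, adjusted p = 6.669e-09) in control and by 0.38 (SE 0.0281, adjusted p = 1.009e-09) in cKO mice, from 126.7 ± 1.93 to 160.9 ± 4.94 and from 124.5 ± 4.37 to 162.3 ± 4.37 CPM (SD, n = 5). Of the potassium channel genes on the large-diameter neuron list, also picked after seeing values, Kcna2 fell by 0.47 and 0.43 (adjusted p = 3.875e-05 and 8.962e-05) and Kcna1 was at 0.01 in each genotype.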
